A study of Mus musculus with 24 samples.

Results

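The 10 genes described here make up the core of the BCL2 family of cell death regulators. They are the guardians Bcl2, Bcl2l1 (BCL-XL) and Mcl1, the pore-forming effectors Bax and Bak1, and the BH3-only genes Bad, Bid, Bcl2l11 (BIM), Bbc3 (PUMA) and Pmaip1 (NOXA). They were chosen by name. Every probe whose transcript accession maps to one of them was taken, which gave 19 probes of 10 genes among 56605 probes and 22911 gene symbols on the array. The question was whether stress of the endoplasmic reticulum (ER) in the cerebellum goes with a rise of these death genes.

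The BCL2 family controls the mitochondrial route to apoptosis. Guardians bind and restrain the effectors, which otherwise open the outer mitochondrial membrane and release cytochrome c, and BH3-only proteins tip that balance by occupying guardians or by switching effectors on. Under lasting ER stress the transcription factors ATF4 and CHOP (gene Ddit3) are known to drive several BH3-only genes, and p53 is known to drive Bbc3, Pmaip1 and Bax. Much of the control of Bad, Bid and Bax is exerted on the protein, by phosphorylation, cleavage or relocation, which RNA levels do not show.

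RNA of whole cerebellum at postnatal day 28 was measured on 24 single-colour Agilent arrays in 12 groups of 2. All mice were C57BL/6. Controls carried floxed Derlin-1 or floxed Derlin-2 and no Cre is named for them; knockouts (KO) carried the same floxed gene together with Cre driven by the nestin promoter, which acts in the neural lineage. Derlin-1 and Derlin-2 are ER membrane proteins that help to export misfolded proteins for degradation. On the numbered Derlin-1 slide and the Derlin-2 slide, controls and KO received either water as vehicle or 4-phenylbutyrate (4PBA, a chemical chaperone and histone deacetylase inhibitor) at 200 mg/kg by daily intraperitoneal injection from day 14 to day 28. The lettered Derlin-1 slide held controls and KO with 4PBA at the same dose and controls and KO whose labels name no vehicle, called untreated here. The labels do not say whether the 2 arrays of a group came from separate animals, so p-values measure only the spread between these arrays.

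Levels are log2 of the processed intensity minus the array's own 75th percentile, so that a level of 0 equals that percentile, and differences are log2 changes with the standard error (SE) of a limma fit over all 24 arrays. A probe was called where its limma p-value, adjusted by Benjamini-Hochberg over all probes tested, was below 0.05. Of the spots on an array, 57.7% to 68.4% were well above background, and the number of arrays limits the precision. All 19 member probes entered the test, and 16 of them were well above background on all 24 arrays. Each slide held 8 arrays, with arrays without 4PBA in its first row and 4PBA arrays in its second, and with controls and KO in separate columns. Position on a slide and group therefore cannot be told apart, and the comparisons were made within slides and averaged over the numbered and lettered Derlin-1 slides. In whole cerebellum, fewer cells of a type and less RNA per cell cannot be told apart.

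The labels were checked first. All 8 Purkinje cell and all 8 granule neuron markers were well above background on all 24 arrays. Both Derl2 probes were low on 3 of the 4 arrays labelled Derlin-2 KO, but vehicle KO array 1, so labelled, read 1.72 on probe A_51_P498831, within the 1.40 to 2.13 of all controls. The Derl1 probe stood at 0.14 to 0.94 on the Derlin-1 KO arrays and at 0.76 to 1.22 on the Derlin-1 controls; whether it lies in the deleted stretch is not given in the sources used here, so it checks nothing. On the lettered slide, the array labelled 4PBA KO b read like a control in its stress genes: its Ddit3 level was -0.31 against -0.67 to -0.07 on the 8 Derlin-1 controls, while the other 7 Derlin-1 KO arrays read 0.57 to 1.55. The main results that rest on either array are given with and without it.

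Without 4PBA, 1 member passed the test in the Derlin-1 KO. Pmaip1 was 2.08-fold higher (log2 change 1.05, SE 0.19, limma adjusted p = 0.0101), which was 1 of 19 member probes beside 5.09% of all 38110 probes tested. Bid, Bbc3 and Bak1 lay just above the threshold with log2 changes of 0.74, 0.75 and 0.29. Guardians and Bax did not pass. In the same comparison 18 of 21 ER stress genes were called higher, beside 3.55% of all genes.

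**Figure D1:**
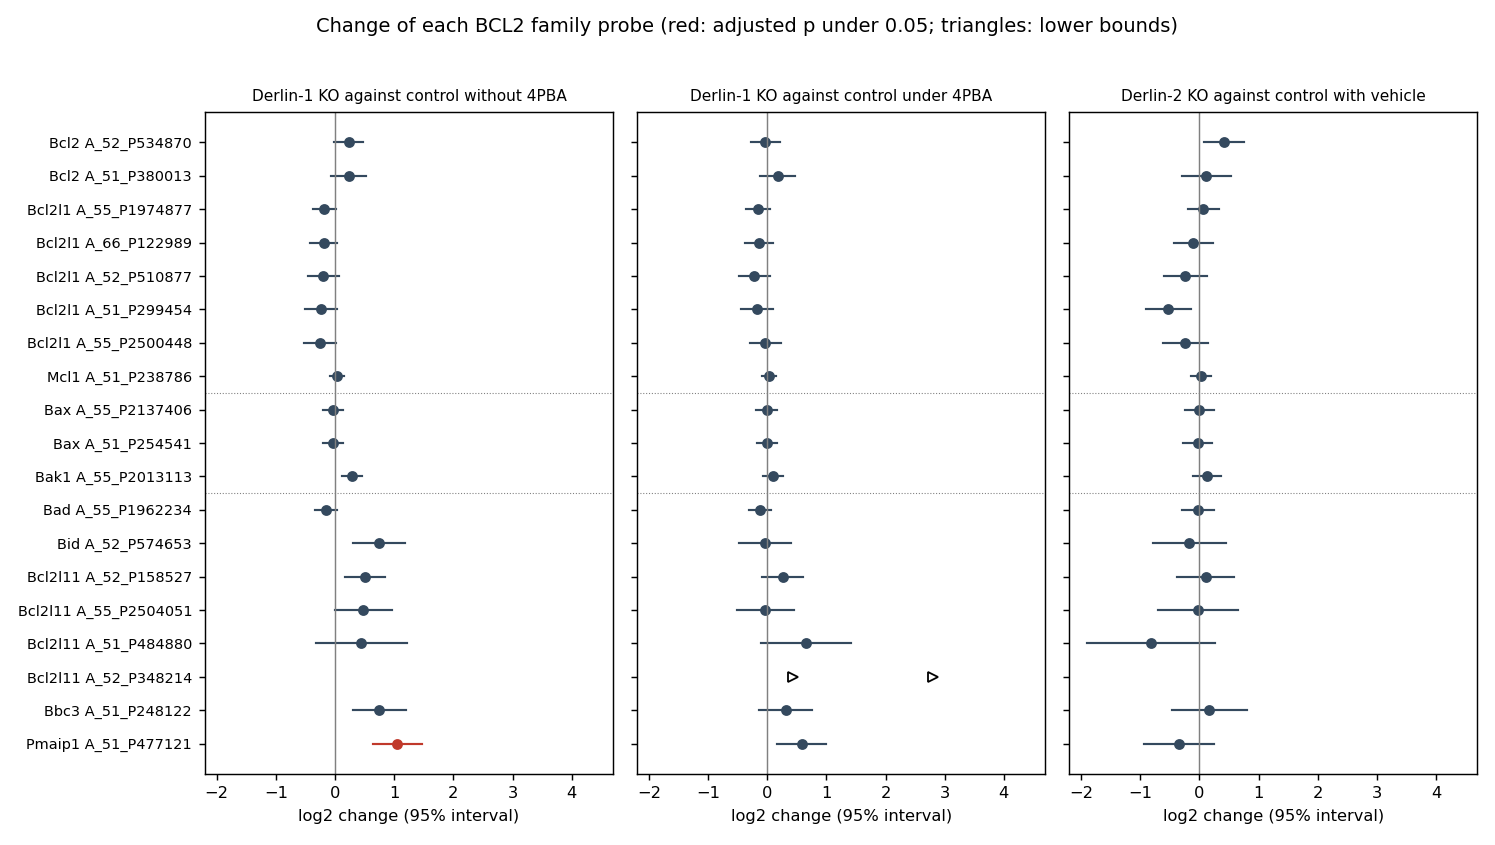
Log2 change of 18 BCL2 family probes with its 95% interval in 3 comparisons of KO with control, ordered by role: guardians above the upper dotted line, effectors between the lines, BH3-only genes below. Without 4PBA only Pmaip1 (1.05) was called in the Derlin-1 KO, and with vehicle none in the Derlin-2 KO. Of the dimmest Bcl2l11 probe, A_52_P348214, only the lower bounds on the numbered (at least 6.95-fold) and lettered slide (at least 1.35-fold) under 4PBA are drawn, as triangles, since its controls are not well above background. Bcl2l11 probe A_51_P484880, well above background on 8 of 24 arrays, is drawn with its fitted change, which is no measured size where its arrays are dim.

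Among the guardians, Bcl2, which restrains effectors at the mitochondrion and calcium release at the ER, was read by 2 probes. Probe A_52_P534870 stood at 0.77 and 0.52 on the vehicle controls and at 0.97 and 1.0 on the vehicle Derlin-1 KO arrays of the numbered slide. On the lettered slide it stood at 0.33 and 0.07 in untreated controls and at 0.19 and 0.47 in untreated KO. The groups separated on the numbered slide and overlapped on the lettered slide. The log2 change over both was 0.23 (SE 0.11, limma adjusted p = 0.264), and the other probe, A_51_P380013, gave 0.23 as well (SE 0.14, adjusted p = 0.39).

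Bcl2l1, whose main product BCL-XL is the leading guardian of mature neurons, was read by 5 probes, which gave log2 changes from -0.25 to -0.19 in the Derlin-1 KO without 4PBA, none of them called. The brightest, A_55_P1974877, stood at 5.24 and 5.16 in vehicle controls against 5.05 and 5.02 in vehicle KO, and at 4.92 and 5.07 in untreated controls against 4.65 and 4.93 in untreated KO. The arrays separated on the numbered slide and overlapped slightly on the lettered slide. Its log2 change was -0.19 (SE 0.09, 95% interval -0.38 to 0.01, limma adjusted p = 0.268). That was the smallest adjusted p of the 5 probes, and since they read 1 gene their shared direction is a description.

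Mcl1, a short-lived guardian that is bound by NOXA, gave the narrowest interval of all members. Its probe stood at 3.23 and 3.22 in vehicle controls and at 3.34 and 3.29 in vehicle Derlin-1 KO, and at 3.62 and 3.68 in untreated controls against 3.63 and 3.63 in untreated KO. The values of the lettered groups lie inside each other. The log2 change was 0.03 with a 95% interval of -0.09 to 0.15 (limma adjusted p = 0.813).

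Among the effectors, Bax showed no change past its error on either probe. Probe A_51_P254541 stood at -0.01 and -0.06 in vehicle controls against 0.10 and -0.04 in vehicle KO, and at 0.74 and 0.54 in untreated controls against 0.36 and 0.68 in untreated KO. The groups overlapped on both slides. Its log2 change was -0.03 (95% interval -0.20 to 0.14, limma adjusted p = 0.908) and that of A_55_P2137406 was -0.04 (-0.21 to 0.14, adjusted p = 0.873). The intervals leave room for a rise of up to 0.14 on the log2 scale.

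Bak1, the effector that resides in the outer mitochondrial membrane, stood at 0.66 and 0.77 in vehicle controls and at 0.97 and 0.89 in vehicle Derlin-1 KO. On the lettered slide it stood at 1.03 and 1.11 in untreated controls and at 1.53 and 1.32 in untreated KO. All KO arrays exceeded the controls of their own slide. The log2 change was 0.29 (SE 0.08), with a limma adjusted p of 0.0523 that misses the threshold.

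The BH3-only genes held the largest changes. Pmaip1, whose product NOXA binds MCL1, stood at -3.39 and -3.48 in vehicle controls and at -2.65 and -2.30 in vehicle Derlin-1 KO. On the lettered slide it stood at -3.90 and -3.47 in untreated controls and at -2.57 and -2.51 in untreated KO. None of these KO arrays overlapped any of the 12 control arrays of the series, which ranged from -3.90 to -3.09. Within single slides the change was 0.96 (limma adjusted p = 0.237) on the numbered and 1.15 (adjusted p = 0.0659) on the lettered slide, so the call needs both slides. Leaving out any 1 array left the change between 0.95 and 1.16, with adjusted p between 0.0153 and 0.0462.

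Bbc3, whose product PUMA binds every guardian, stood at 1.09 and 1.15 in vehicle controls and at 1.60 and 1.62 in vehicle KO. In the lettered groups it stood at 1.52 and 0.86 in untreated controls and at 2.62 and 1.78 in untreated KO. The KO arrays were above the controls of their slide on both slides, and the array labelled Derlin-1 KO untreated a was the highest of all 24. The log2 change was 0.75 (SE 0.21, limma adjusted p = 0.0543).

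Bid, which links death receptors to mitochondria once its protein is cut, stood at -3.48 and -3.23 in vehicle controls and at -2.86 and -2.46 in vehicle KO. The lettered groups read -2.57 and -2.86 in untreated controls and -1.57 and -2.29 in untreated KO. Again the groups did not overlap within a slide. The log2 change was 0.74 (SE 0.20, limma adjusted p = 0.0518).

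Bcl2l11, whose product BIM binds guardians and can switch on BAX, was read by 4 probes of different brightness. The brightest, A_52_P158527, stood at 0.24 and 0.36 in vehicle controls against 0.66 and 0.85 in vehicle KO, and at 0.26 and 0.36 in untreated controls against 1.19 and 0.57 in untreated KO. KO arrays lay above the controls of their slide, with a log2 change of 0.51 (SE 0.16, limma adjusted p = 0.0772). Probes A_55_P2504051 and A_51_P484880, well above background on 22 and 8 of 24 arrays, gave 0.48 and 0.44 with adjusted p of 0.242 and 0.549. The dimmest, A_52_P348214, was not well above background in any group of this comparison. Bad, whose protein is held inactive by survival kinases, went the other way with a log2 change of -0.16 (SE 0.09, adjusted p = 0.34) around levels of 2.91 to 3.34.

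Counted over the family on the arrays without 4PBA, 5 of 19 probes were higher in every Derlin-1 KO array than in the controls of the same slide, for Pmaip1, Bbc3, Bid, Bcl2l11 and Bak1, beside 9.48% of all probes. An unadjusted p below 0.05 was reached by 6 of 19 probes, all higher in the KO, beside 10.4% of all probes in that direction, and by 0 in the lower direction beside 9.93%. The median log2 change was 0.23 over the member probes and 0.02 over all probes. The mean log2 level of the 10 genes was higher on every KO array than on the controls of the same slide. Their summed level (log2), which the brightest genes lead, went the other way. The sum was 6.00 to 6.04 on the 4 controls and 5.94 to 5.99 on the 4 KO arrays, without overlap. These members were picked by name with results of these data known, so the counts are a description. The 4 near misses depend on settings: the number of called member probes was 5 with limma's robust, trended estimate of the spread, where 2617 of all probes were called in place of 1938. It was also 5 without the array labelled Derlin-1 KO untreated b, with 3343 called in all. It was 0 on the numbered slide alone, with 9 called in all, and 0 on the lettered slide alone, with 237.

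**Figure D2:**
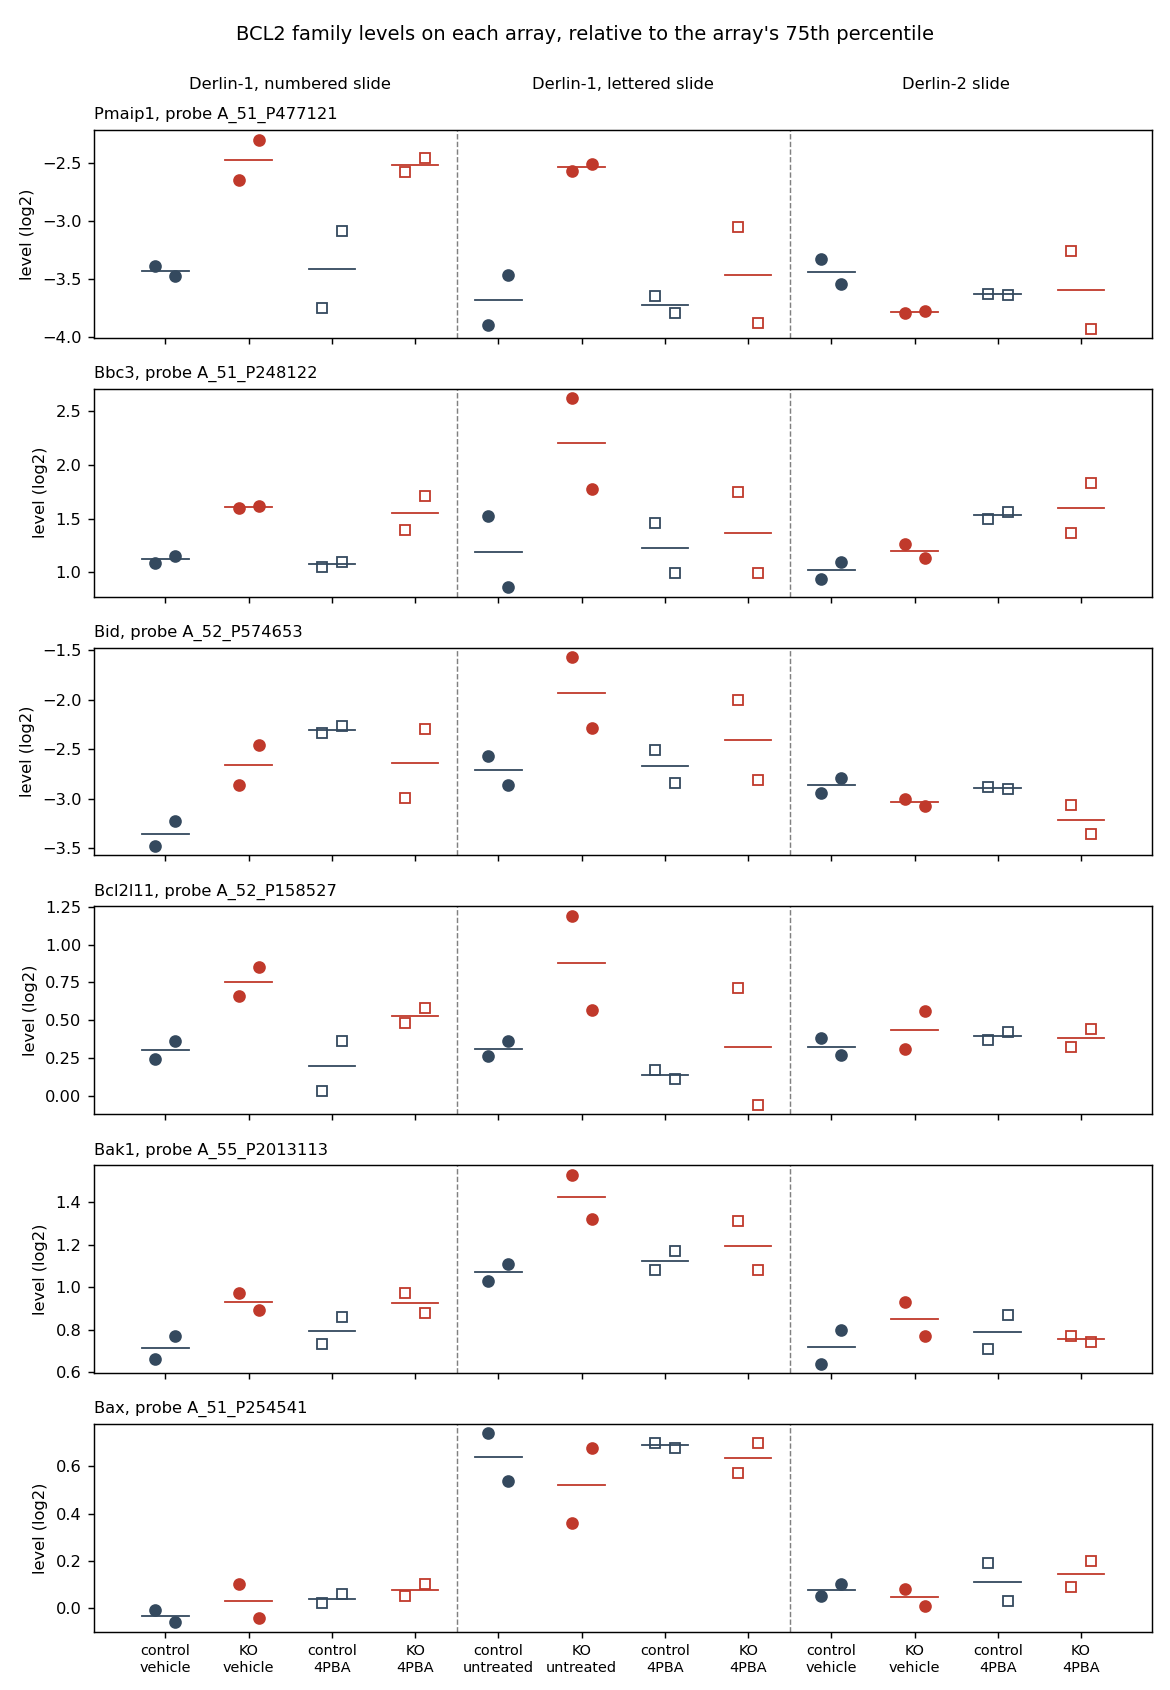
Level of 6 BCL2 family probes (log2, relative to the array's 75th percentile) on each of the 24 arrays, with lines at group means; filled circles are arrays without 4PBA, open squares 4PBA arrays, red KO and dark blue control. Pmaip1 is at -2.65 to -2.30 on the 4 Derlin-1 KO arrays without 4PBA, above all controls, and Bax does not separate by genotype on either Derlin-1 slide.

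The sequences upstream of the start sites were read for 4 of the 5 members whose KO arrays lay above the controls of their slide, and for Bax, the effector whose groups overlapped. They come from RefSeq's mouse annotation on build GRCm38.p6. The search took 15 start sites of 9 of the 10 members. Pmaip1 was left out of it, so its upstream sequence was not read. The 250 bases before the first listed start are shown 5′ to 3′ on the strand of the gene, in lower case with any match to the motifs named below in capitals.
Bbc3, chr7:16309333-16309582, plus strand: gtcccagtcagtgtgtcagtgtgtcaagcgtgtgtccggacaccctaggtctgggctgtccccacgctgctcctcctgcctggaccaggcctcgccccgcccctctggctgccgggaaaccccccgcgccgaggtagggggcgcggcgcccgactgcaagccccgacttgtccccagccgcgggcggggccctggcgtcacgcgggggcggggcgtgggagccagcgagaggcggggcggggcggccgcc
Bid, chr6:120916825-120917074, minus strand: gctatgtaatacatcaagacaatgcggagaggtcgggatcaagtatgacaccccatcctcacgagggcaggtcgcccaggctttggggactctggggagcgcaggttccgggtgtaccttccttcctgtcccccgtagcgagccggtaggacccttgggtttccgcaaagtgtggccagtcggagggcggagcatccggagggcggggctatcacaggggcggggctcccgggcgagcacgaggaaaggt
Bcl2l11, chr2:128125788-128126037, plus strand: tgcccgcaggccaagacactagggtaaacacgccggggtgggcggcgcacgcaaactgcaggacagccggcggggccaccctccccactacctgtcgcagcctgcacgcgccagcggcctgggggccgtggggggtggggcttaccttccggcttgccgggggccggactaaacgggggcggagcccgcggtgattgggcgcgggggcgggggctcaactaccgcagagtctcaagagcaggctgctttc
Bak1, chr17:27028628-27028877, minus strand: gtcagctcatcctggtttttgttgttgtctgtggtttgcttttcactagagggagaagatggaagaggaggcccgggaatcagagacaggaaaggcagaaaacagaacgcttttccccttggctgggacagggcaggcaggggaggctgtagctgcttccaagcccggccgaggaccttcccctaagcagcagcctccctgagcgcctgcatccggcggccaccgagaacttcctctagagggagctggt
Bax, chr7:45466899-45467148, minus strand: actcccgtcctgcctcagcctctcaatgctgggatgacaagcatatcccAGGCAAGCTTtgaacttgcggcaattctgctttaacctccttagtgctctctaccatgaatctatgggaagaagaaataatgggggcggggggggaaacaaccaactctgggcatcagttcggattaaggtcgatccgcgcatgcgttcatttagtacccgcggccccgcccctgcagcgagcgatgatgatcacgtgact

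Motifs of the stress response were searched on both strands of these windows. None of the 15 member windows held the C/EBP-ATF response element TGATGNAAN, the CHOP core TGCAAT, the ATF element TGACGTCA, the XBP1 element GACGTGG or the ERSE (CCAAT and CCACG with 9 bases between), which 3.44%, 7.32%, 1.55%, 1.97% and 0.113% of all 32851 windows hold. The capitals in Bax mark the only match, to the p53 half-site, at position -201 from the start; that pattern occurs in 7.13% of all windows. The Bbc3 window has 76.4% G and C and 27 CpG, and the Bak1 window 58.4% and 8, beside medians of 52.4% and 6 over all windows. A match in these letters is no binding site, and a missing one speaks only of this stretch.

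The Derlin-1 KO arrays carried a broad ER stress response. Ddit3, which encodes CHOP, was at -0.67, -0.54, -0.25 and -0.39 on the 4 controls without 4PBA and at 0.72, 0.59, 1.55 and 1.50 on the 4 KO arrays, with no overlap (log2 change 1.55, SE 0.21, limma adjusted p = 0.00407). Of 21 ER stress genes tested, 18 were called higher and 0 lower, beside 3.55% and 3.24% of all genes. Their median log2 change was 0.84 beside -0.01 over all genes. The largest were Trib3 (3.32), a pseudokinase induced by CHOP, the stress factor Atf3 (2.25), the glutathione-degrading enzyme Chac1 (2.19) and the ER chaperone cofactor Sdf2l1 (1.80). Hspa5, the chaperone BiP, rose by 1.23 and Atf4 by 0.46.

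Other death pathway lists were read in the same comparison, in which 6.79% of all genes were called, each gene by 1 probe. Of 9 other BCL2 family genes tested, 2 were called higher and 2 lower, with a median of -0.13 beside -0.01 over all genes. Their summed level (log2) was 5.20 to 5.36 on the 4 controls and 5.10 to 5.17 on the 4 KO arrays, without overlap. The brightest genes lead this sum, and the mean log2 level of the 9 genes went the other way. That mean was higher on every KO array than on the controls of the same slide. Bcl2a1d, a guardian of blood cells and microglia with near-identical copies that 1 probe may not tell apart, rose by 1.71, and Hrk, a BH3-only gene of neurons, rose by 1.25. Bcl2l15 fell by 0.64 and Bmf, a BH3-only gene tied to the cytoskeleton, fell by 0.47. Of 16 genes of the apoptosome and the caspases, 1 was called: Casp12, a caspase at the ER, rose by 0.54. The list's median was 0.03, and its summed level was 5.85 to 6.10 on the controls and 5.59 to 6.07 on the KO arrays.

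Of 12 death receptor genes tested, Cflar, an inhibitor of caspase-8, was called higher (0.50) and the adaptor Tradd lower (-0.37), with a list median of 0.21. An unadjusted p below 0.05 was reached by 6 of the 12 in the higher and 2 in the lower direction, beside 12.3% and 12.8% of all genes. The summed level was 2.15 to 2.40 on the controls and 2.37 to 2.70 on the KO arrays. Of 11 genes of p53 and its targets, Cdkn1a, which encodes the cell cycle inhibitor p21, was called higher (1.06) and Btg2 lower (-0.53), with a list median of 0.09. Its summed level, which the brightest genes lead, was 4.81 to 4.90 on the controls and 4.95 to 5.06 on the KO arrays. The limma adjusted p of these 9 genes ranged up to 0.035.

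Across all 24 arrays, after centring on each slide, the genes most like Pmaip1 were Hsd17b1 (Pearson r = 0.96), Nupr1, Laptm5 and Fyb (each 0.92) and C4b (0.91). Nupr1 is a stress-induced nuclear protein, Laptm5 and Fyb are known from blood cells and C4b is a complement component. The stress genes named here ranked lower among all genes: Ddit3 and Trib3 at ranks 40 and 41 (both 0.88), Hspa5 at rank 411 (0.76) and Atf4 at rank 786 (0.68). These correlations describe 24 arrays on 3 slides and largely restate the separation of the Derlin-1 KO.

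Markers of microglia moved with Pmaip1. Of 10 markers 8 were called higher in the Derlin-1 KO without 4PBA, beside 3.55% of all genes, with a median log2 change of 1.43. P2ry12 (0.24) and Tmem119 (0.29) were not called. The summed level (log2) of the 10 was 3.75 to 4.11 on the 4 controls and 4.86 to 5.13 on the 4 KO arrays. All 10 were well above background on every array. Markers of granule neurons had a median of -0.32, with Gabra6 (-0.76) and Neurod1 (-0.68) called lower, beside 3.24% of all genes. The astrocyte marker Gfap rose by 1.25, 1 of 8 in its list, and the leukocyte gene Ptprc, which microglia also express, by 1.21. The part of these cell types in the change of Pmaip1 was not tested.

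**Figure D3:**
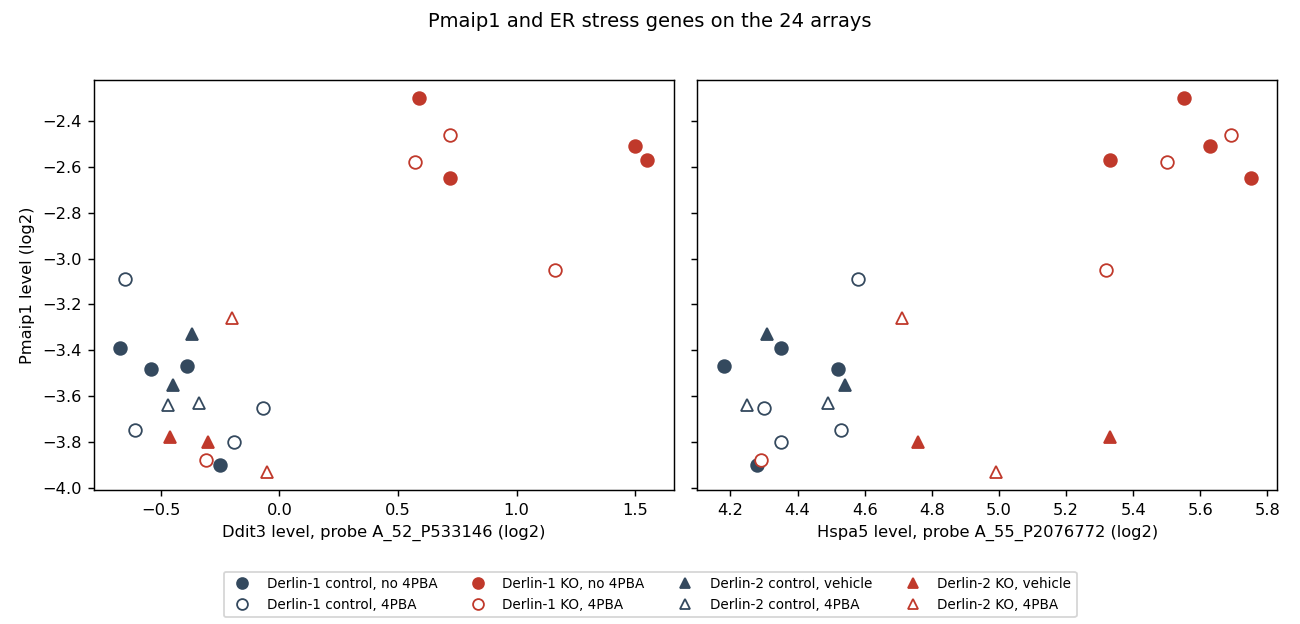
Pmaip1 level against the level of Ddit3 (left) and Hspa5 (right) on the 24 arrays, each as log2 relative to the array's 75th percentile. Of the 8 Derlin-1 KO arrays, 6 have Pmaip1 at -2.65 to -2.30; the lettered arrays labelled 4PBA KO a and b have it at -3.05 and -3.88, the latter among the controls, and a Derlin-2 KO array with Hspa5 at 5.33 has Pmaip1 at -3.78.

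With 4PBA on both sides, the Derlin-1 KO differed from control by 0.58 in Pmaip1 (SE 0.19, limma adjusted p = 0.341). The 4PBA controls stood at -3.75, -3.09, -3.65 and -3.80 and the 4PBA KO arrays at -2.58, -2.46, -3.05 and -3.88. The last, the lettered array labelled 4PBA KO b, was below every 4PBA control, and the other 3 were above every one. Without it the change was 0.78 and was called (adjusted p = 0.0394); the adjusted p over all leave-one-out fits ran from 0.0394 to 1. Leaving that array out raised the number of probes called from 24 to 1079, so 1 array decides how many probes pass in this comparison.

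Among the other members no probe passed under 4PBA except the dimmest Bcl2l11 probe, A_52_P348214, described below. Bbc3 changed by 0.31 (SE 0.21), Bcl2l11 probe A_52_P158527 by 0.26 (SE 0.16), Bak1 by 0.10 (SE 0.08) and Bid by -0.03 (SE 0.20), with limma adjusted p from 0.656 to 0.985. Without the lettered array labelled 4PBA KO b these changes were 0.50, 0.46, 0.15 and 0.17, with adjusted p from 0.112 to 0.835. Bid stood at -2.34 and -2.27 on the numbered 4PBA controls against -2.99 and -2.30 on the numbered 4PBA KO, so that its controls were as high as the KO arrays. The difference of the KO effect under 4PBA from that without was -0.77 for Bid (SE 0.29, adjusted p = 1) and -0.48 for Pmaip1 (SE 0.27, 95% interval -1.06 to 0.11, adjusted p = 1), and without that array -0.57 and -0.27 (adjusted p = 1 for both).

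1 member probe was called under 4PBA, beside 0.063% of 38109 probes. It is A_52_P348214, the dimmest probe of Bcl2l11. It stood at -2.66 and -2.71 on the numbered 4PBA KO arrays and at -5.36 and -5.47 on the lettered ones, and was well above background on these 4 arrays alone. The 4PBA controls read -7.46, -7.68, -7.64 and -8.21, none well above background, so their level is only a bound. The KO was at least 6.95-fold higher on the numbered and at least 1.35-fold higher on the lettered slide, where the bound sets the KO mean against the lowest signal well above background on the dim arrays.

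The same probe was called between 4PBA and none in the Derlin-1 KO, beside 0.0525% of probes, as at least 9.49-fold higher on the numbered and at least 1.75-fold higher on the lettered slide. It was called again, beside 0.0315%, in the KO effect under 4PBA minus that without. The probe entered the test only through the 4PBA KO arrays, the group in which it is high, so these 3 calls are a description and carry no p-value. The other 3 probes of Bcl2l11 changed with 4PBA in the KO by -0.39, -0.51 and -0.19, with adjusted p from 0.907 to 1. Between KO and control under 4PBA they changed by 0.26, -0.03 and 0.65, with none called. The last, A_51_P484880, was higher in the KO without overlap on each slide, but only 1 of those 8 arrays, a KO array, read it well above background. Together with A_52_P348214 that made 2 of 19 probes, beside 2.44% of all probes. On none of the 12 arrays without 4PBA did the probe stand well above background.

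That spot lies in row 9 of the 384 rows of the grid, where the share of dim spots that read high moved with 4PBA. Of dim spots (median level below -5) in rows 1 to 25, 16.2% to 21.6% read more than 2 log2 units above their own median on the 8 4PBA arrays of the numbered and Derlin-2 slides, and 0% to 0.71% on the 8 without. On the lettered slide the shares were 6.58% to 8.45% and 0% to 1.16%. At the other end, in rows 360 to 384, the arrays without 4PBA had the higher share, 5.76% to 17.8% against 0% to 0.768% on the numbered and Derlin-2 slides.

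Of the 32 spots around this Bcl2l11 probe, 2 to 12 read high in that way on 4PBA arrays and 0 to 2 on the others. The 5 genes most like it over 23 arrays (Aox4, Gm30993, Gm28729, Obox5 and Olfr1357, r from 0.82 to 0.89) have their probes in rows 4 to 7. Of all 24 probes called in the KO under 4PBA, 12 lie in rows 1 to 25, which hold 6.99% of the probes tested. Without the first and last 25 rows, a setting that leaves this probe out, no member was called in any of these 3 comparisons; how far the spot's place makes up the change of Bcl2l11 was not tested.

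**Figure D4:**
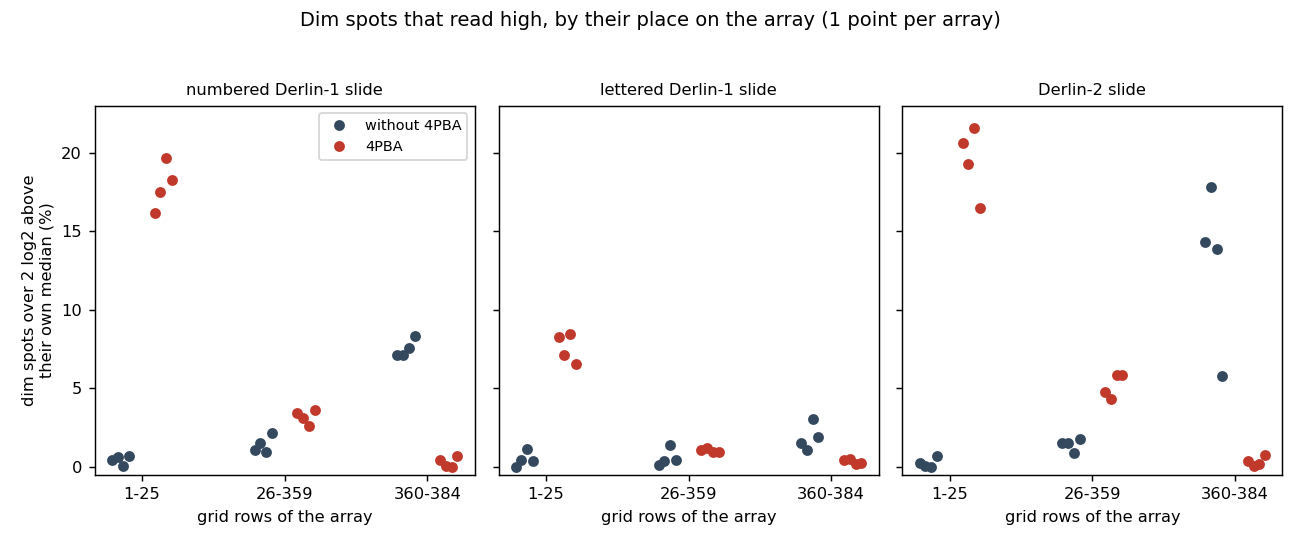
Share of dim spots that read more than 2 log2 units above their own median, by grid row, 1 point per array, in percent. In rows 1 to 25, where the called Bcl2l11 probe lies (row 9), the 4PBA arrays are at 6.58% to 21.6% and the arrays without 4PBA at 0% to 1.16%, on all 3 slides.

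4PBA alone moved no member past the threshold in the Derlin-1 controls, where 0 of 19 probes were called by limma beside 0.0341% of probes, with 1 at an unadjusted p below 0.05 beside 2.25%. Bid gave the largest change there, 0.54 (SE 0.20, limma adjusted p = 1), which came from the numbered slide, where controls went from -3.48 and -3.23 to -2.34 and -2.27. The lettered controls stood at -2.57 and -2.86 and at -2.51 and -2.84. Pmaip1 changed by -0.01 (SE 0.19).

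In the Derlin-1 KO, arrays with 4PBA read lower than arrays without for Pmaip1 (-0.49, SE 0.19), Bbc3 (-0.44, SE 0.21) and Bcl2l11 probe A_52_P158527 (-0.39, SE 0.16), and limma adjusted p were 0.906, 0.929 and 0.907. Pmaip1 stood at -2.65 and -2.30 without and -2.58 and -2.46 with 4PBA on the numbered slide, where the groups overlapped. On the lettered slide it stood at -2.57 and -2.51 without and -3.05 and -3.88 with. Of 21 ER stress genes 0 had a change above 0, beside 46.8% of all genes, with a median of -0.30 beside -0.01. By limma 0 of them were called, beside 0.0354% of all genes. The median was -0.09 without the lettered array labelled 4PBA KO b. With the lettered array labelled 4PBA KO b left out, the differences were -0.28 for Pmaip1, -0.25 for Bbc3 and -0.19 for this Bcl2l11 probe (adjusted p = 1 for each).

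The Derlin-2 KO showed no called member. With vehicle, 0 of 19 probes were called by limma beside 0.121% of 38107 probes, and 2 had an unadjusted p below 0.05, beside 6.96% of all probes: Bcl2 probe A_52_P534870 (0.42, SE 0.16, adjusted p = 0.625) and Bcl2l1 probe A_51_P299454 (-0.53, SE 0.18, adjusted p = 0.566). Pmaip1 stood at -3.33 and -3.55 in the Derlin-2 vehicle controls and at -3.80 and -3.78 in the vehicle KO. The KO arrays were the lower ones, with a log2 change of -0.35 (SE 0.27, adjusted p = 0.833), or -0.34 without the array labelled vehicle KO 1. Leaving out any 1 array, the one labelled vehicle KO 1 included, gave no called member either.

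The Derlin-1 effect on Pmaip1 without 4PBA exceeded the Derlin-2 effect by 1.40 (SE 0.33, 95% interval 0.69 to 2.12), with an unadjusted p of 0.000903 and a limma adjusted p of 0.181. In this difference 0 of 19 members were called beside 0.0682% of probes, and 2 had an unadjusted p below 0.05, beside 11% of all probes, Pmaip1 and Bid (0.91, SE 0.35, adjusted p = 0.365). Without the Derlin-2 array labelled vehicle KO 1 the differences were 1.39 for Pmaip1 (adjusted p = 0.188) and 0.95 for Bid (adjusted p = 0.431). The 2 lines were measured on separate slides, so that the difference is one of within-slide changes. In the Derlin-2 KO with vehicle 0 of 21 ER stress genes were called by limma, beside 0.106% of all genes. Of the 21, 4 had an unadjusted p below 0.05, all higher, beside 3.28% of all genes in that direction. The median log2 change of the 21 was 0.16 beside -0.01 over all genes, with 14 of 21 above 0 beside 48.7% of all genes. Without the array labelled vehicle KO 1 the median was 0.26 beside -0.03, with 0 called and 6 at an unadjusted p below 0.05. Vehicle KO array 2 of the Derlin-2 slide read Hspa5 at 5.33, against 5.33 to 5.75 on the Derlin-1 KO arrays without 4PBA, and against 4.25 to 4.54 on the 4 controls of its own slide. Its Ddit3 level of -0.46 lay within the -0.47 to -0.34 of those controls, and its Pmaip1 level of -3.78 below their -3.64 to -3.33.

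Under 4PBA the Derlin-2 KO again gave 0 of 19 called members, by limma and beside 0.171% of probes, and 0 at an unadjusted p below 0.05, beside 4.98%. Of the 21 ER stress genes 19 had a change above 0, beside 42% of all genes, with a median of 0.28 beside -0.03. By limma 0 of them were called, beside 0.136% of all genes. Of the 21, 1 had an unadjusted p below 0.05, higher, beside 2.06% of all genes. Pmaip1 stood at -3.63 and -3.64 in the Derlin-2 4PBA controls and at -3.26 and -3.93 in the 4PBA KO, which lie on both sides of the controls (0.04, SE 0.27). Between 4PBA and vehicle 0 members were called in the Derlin-2 controls beside 0.176%, with 1 at an unadjusted p below 0.05 beside 6.32%. In the Derlin-2 KO 0 were called by limma beside 0.155%, with 2 at an unadjusted p below 0.05 beside 7.67%. These were Bcl2 probe A_51_P380013 (0.42, adjusted p = 0.646) and the dim Bcl2l11 probe A_52_P348214, which read -5.24 and -7.15 with 4PBA and -8.01 and -8.33 with vehicle, well above background on none of these 4 arrays. Bbc3 went from 0.94 and 1.1 to 1.5 and 1.56 in the Derlin-2 controls and from 1.26 and 1.13 to 1.37 and 1.83 in the KO. Each 4PBA array exceeded each vehicle array of its genotype, but with 2 against 2 arrays 19.9% and 18.8% of all probes did so, and the changes of 0.51 (SE 0.30, adjusted p = 0.859) and 0.41 (SE 0.30, adjusted p = 0.805) did not pass. Without the array labelled vehicle KO 1 the change in the KO was 0.47 (adjusted p = 0.997). The Derlin-2 KO effect under 4PBA minus that with vehicle also had 0 of 19 called, beside 0.0893%, and 1 at an unadjusted p below 0.05 beside 4.84%.

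The KO effect without 4PBA on the numbered and on the lettered Derlin-1 slide was 0.96 and 1.15 for Pmaip1, 0.49 and 1.01 for Bbc3 and 0.70 and 0.78 for Bid. The difference between the slides was called for 0 of 19 member probes by limma, beside 0.0131% of probes, with 0 at an unadjusted p below 0.05 beside 3.29%. It was 0.18 for Pmaip1 (95% interval -0.65 to 1.01), 0.51 for Bbc3 (-0.38 to 1.41) and 0.08 for Bid (-0.79 to 0.96). For Bbc3 and Bid the intervals hold differences as large as the effects over both slides, and for Pmaip1 the interval ends just below its effect of 1.05.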

How the data were processed

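Total RNA of mouse cerebellum was labelled with Cy3 and hybridised to single-colour Agilent arrays, 1 sample each, per the labels' protocols; intensities were extracted by the authors with Agilent Feature Extraction 10.7.1.1, per the submitters' processing notes. The deposited intensity used is the background-subtracted processed signal of each spot. Control spots and outlier spots were left out, spots of a probe averaged, log2 taken and each array's 75th percentile subtracted. A probe was tested if well above background on both arrays of at least 1 group, which kept 38115 of 56605. One limma 3.58.1 model (R 4.3.3) with 12 group means gave all contrasts, with 12 residual and 1.91 prior degrees of freedom, and p-values were adjusted by Benjamini-Hochberg. It was tested on simulated data.

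Transcript accessions were named through RefSeq's mouse gene table. For a list a gene stands by its probe of highest mean level. The named genes are all members, at most 4 called genes per list and comparison with the largest changes, Ddit3, Atf4, Trib3, Hspa5 and the Derl genes. The members, lists and tests were chosen with earlier results of these data known. Alternatives were quantile normalization, normexp (offset 50, on median signals since the files hold no mean signal), no filter, a stricter filter, outlier spots kept, 1 probe per gene, slide or replicate as a term, another spread estimate, the authors' deposited series table (equal to the processed signal within 1.74e-06 log2 for 56305 probes), each slide alone, and each array left out. Deviations of same-numbered arrays correlated at -0.21 to 0.36, -0.09 to 0.21 and -0.13 to 0.65 on the 3 slides; not every pair exceeded 0.1 and the labels state no pairing, so numbers were not taken as pairs.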

Additional observations from a re-analysis of the deposited data

Results flagged for a closer look

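The change of Bcl2l11 probe A_52_P348214 differed between Derlin-1 comparisons: the KO effect under 4PBA exceeded that without by a fitted 3.44 on the log2 scale. The probe is not well above background on the other arrays and entered the test only through the 4PBA KO arrays, so the value is no measured size and no p-value is given with it.

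The same probe has an outlier spot on the array labelled Derlin-2 control 4PBA 2, which was left out of the fit. Its level there was 0.70, above the -2.71 to -2.66 of the numbered 4PBA KO arrays, on an array that carries no Cre by its labels. With outlier spots kept, the probe was called in none of the 3 Derlin-1 comparisons in which it otherwise passed.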

How the results depend on the processing

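The count of called member probes in the Derlin-1 KO without 4PBA was 1, and it was 2 with normexp, 3 with quantile normalization, 4 with probes above background on all arrays, 4 with slide as an additive term, 5 with 1 probe per gene, 5 with the robust and trended spread, 0 on each Derlin-1 slide alone, and 1 to 5 with 1 array left out. With the replicate number as a block it was 4 (Bid, Bbc3, Bcl2l11 and Pmaip1); the numbers were not taken as pairs. Pmaip1 kept its direction under all 23 alternatives (0.68 to 1.16, adjusted p 0.00416 to 0.237) and lost its call on each slide alone. Under 4PBA the Derlin-1 count of 1 became 0 with the series table, outlier spots kept, the stricter filter, 1 probe per gene, the slide term, the lettered slide alone or without the first and last 25 grid rows, a setting chosen after seeing the data, and ran from 1 to 2 with 1 array left out. For 4PBA against none in the Derlin-1 KO the same 7 settings gave 0, and for the KO effect under 4PBA minus without they gave 0, as did normexp and the robust spread, with 0 to 1 when 1 array was left out. In the Derlin-2 KO, 4PBA against vehicle gave 1 without the filter and 0 to 1 with 1 array left out. In each of these the probe lost or gained is the dim Bcl2l11 one, except Pmaip1, gained when the lettered array labelled 4PBA KO b was left out. The cause was not tested, beyond settings that drop the probe.

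Signs turned only for changes that were not called. Without 4PBA, Bcl2l11 probe A_52_P348214 was -0.07 on the numbered slide alone and -0.06 to 0.58 with 1 array left out; Bax A_55_P2137406 was 0.01 with quantile normalization, 0.05 on the numbered slide and -0.09 to 0.02 with 1 array left out; Bax A_51_P254541 was 0.07 on the numbered slide and -0.11 to 0.05 with 1 array left out; and Mcl1 was -0.02 on the lettered slide. Bid under 4PBA was 0.10 with normexp, 0.27 on the lettered slide and -0.24 to 0.17 with 1 array left out, and Bid with 4PBA against none in the Derlin-1 KO was 0.01 on the numbered slide. Over all probes the Derlin-1 KO without 4PBA had 1938 calls and 9 to 3343 under the alternatives. Quantile normalization moved the median of all probes by -0.12 in 4PBA against vehicle in the Derlin-2 KO, and no other comparison by over 0.1 under any scaling.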

Other observations

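Several members stood at different levels on the lettered slide than on the other Derlin-1 slide, in controls and KO alike, and probes of 1 gene did not always move together. Mcl1 ranged from 3.57 to 3.68 on the lettered slide, from 3.20 to 3.40 on the numbered slide and from 3.11 to 3.27 on the Derlin-2 slide. Bax probe A_51_P254541 ranged from 0.36 to 0.74 on the lettered and from -0.06 to 0.10 on the numbered slide, while Bax probe A_55_P2137406 ranged from 1.80 to 2.04 and from 1.83 to 2.04. Bcl2 probe A_52_P534870 was lower on the lettered slide (0.07 to 0.47 against 0.52 to 1.15) and Bcl2 probe A_51_P380013 higher for most arrays (-1.28 to -0.72 against -2.03 to -1.25).

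Markers of the choroid plexus varied widely between arrays: their summed log2 level ran from 3.65 to 7.91 on the numbered slide, from 1.65 to 7.03 on the lettered slide and from 4.99 to 7.90 on the Derlin-2 slide. No list of the other cell types had such a range.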
